A study of Mus musculus with 30 samples.

Results

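The 7 genes described here, Camk2a, Camk2n1, Snap25, Nrgn, Syt1, Calm2 and Atp1b1, encode abundant synaptic and membrane proteins of neurons. Pieces of their mRNAs were followed in small RNA sequencing of the mouse cortex. A read of 20 to 45 nt was assigned to a gene when its whole sequence matched, in the sense direction and without a mismatch, a protein-coding transcript of that gene in GENCODE vM21 and no transcript of another gene. This gave 1194402 reads and 77105 distinct sequences for the 7 genes over 16 PANDORA-seq libraries, in which 18889 protein-coding genes had a matched read.

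The cortex came from 6-month-old mice that were either WT or 5xFAD, called AD here. The 5xFAD strain carries mutated human transgenes, App among them, driven by the Thy1 promoter, which is active in neurons, so it models the amyloid side of the disease. Per the methods of the study, the AD mice were hemizygous, their WT littermates shared the C57BL6/J background, both sexes were used, and the tissue was prefrontal. PANDORA-seq (8 WT and 8 AD libraries) treats gel-cut RNA of 15 to 50 nt with T4PNK, which repairs RNA ends, and then with AlkB, which removes certain base methylations, whereas traditional-seq (7 WT and 7 AD libraries) joins adapters to untreated RNA. The labels number the libraries within a genotype and do not say which mouse each came from, while the study's figure legends count as many mice as there are libraries in each group. The p-values measure the spread between these libraries.

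At a synapse, a calcium signal releases transmitter from vesicles on one side and is read by calmodulin-binding proteins on the other. Snap25 is a membrane SNARE protein that drives fusion of vesicles, and Syt1 is the vesicle's calcium sensor. Camk2a is the alpha subunit of the calmodulin-dependent kinase of excitatory synapses, Camk2n1 inhibits that kinase, Nrgn binds calcium-free calmodulin, and Calm2 is 1 of the genes that encode calmodulin itself. Atp1b1 is a beta subunit of the Na,K-ATPase, the pump that restores the ion gradients. Small RNA libraries are usually read for microRNAs and fragments of tRNA and rRNA, and fragments of mRNA form a further fraction that such libraries also hold.

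For 6 of the genes, the most abundant coding fragment of 20 to 28 nt is shown to let its ends be seen. The read is in lower case, and the capitals are the transcript bases just before and just after it. In 6 of 6 the base before the read, and in 5 of 6 the base after it, is T (U in the RNA).
Camk2n1: TaggattgatgacgtgctgaaaaccaT
Snap25: TgtgtgtccctgtaacaagctT
Nrgn: TgctccaagccagacgacgatattcttgaC
Syt1: TagtcgtgacctgctgcttctgT
Calm2: TatttgacaaggacggggatgggacaaT
Atp1b1: TacggcttccctctgcagtatT
On GRCm38 these reads lie in coding exons at chr4:138456735-138456759 on the plus strand (Camk2n1, 25 nt), chr9:37546137-37546164 on the minus strand (Nrgn, 28 nt), chr10:108642332-108642352 on the minus strand (Syt1, 21 nt), chr17:87435887-87435912 on the minus strand (Calm2, 26 nt) and chr1:164438462-164438481 on the minus strand (Atp1b1, 20 nt). The Snap25 read of 20 nt joins 2 exons within chr2:136770158-136773897 on the plus strand, so it came from spliced mRNA. Each sequence is rare in itself. The Atp1b1 fragment had 931 reads in 16 of 16 libraries, which is 0.627% of that gene's reads, and reached 0.995 ± 0.850 reads per 1000000 (SD, n = 8) in WT and 0.684 ± 0.455 in AD. The Nrgn fragment had 47 reads in 7 libraries. The fragments of Snap25 and Syt1 also had a lower mean in AD, and those of Camk2n1, Nrgn and Calm2 a higher one. Calm2 stood at 0.280 ± 0.409 in WT and 0.541 ± 0.542 in AD. These single sequences were not tested.

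Each gene gave many overlapping fragments. Syt1 gave 17440 distinct sequences, of which the 10 most abundant held 9.96% of its reads, and Camk2a gave 17504 with 13.2% in the first 10. Nrgn (4017 sequences, 41.99%) and Calm2 (4656 sequences, 38.6%) were the most concentrated. Reads matching these genes in the antisense direction numbered 1 to 26 per gene over the 16 libraries. For Calm2, 18704 reads (13.6%) also matched a transcript of another gene, mostly Gm7308 with 14957, and were left out, so its values cover part of its mRNA. Such shared reads numbered 3044 for Camk2a (1.79%), 149 for Snap25 and 25 or fewer for the other 4.

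PANDORA-seq libraries held 54926347 to 105876141 reads and traditional-seq libraries 9370669 to 17053412. The 7 genes together had 12356 to 169439 reads per PANDORA-seq library, with a median of 59434.5. Fragments of nuclear mRNAs took 6.74% to 16.6% of the reads of 15 to 40 nt in WT and 5.20% to 13.8% in AD. The synaptic, excitatory and inhibitory neuron markers listed for cortex were all detected by PANDORA-seq in both groups. Astrocyte, microglia, oligodendrocyte and endothelial markers were detected too, as whole cortex contains these cells. In such bulk tissue, fewer neurons and less RNA per neuron cannot be told apart.

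Several libraries stood apart from the others. AD replicates 1, 6 and 7 held fragments of cerebellar mRNAs: Gabra6, a GABA receptor subunit of cerebellar granule cells, stood at 233, 88.6 and 38.8 reads per 1000000 nuclear mRNA fragments there and at 0.347 to 8.82 in the other 13 libraries. Pcp2, a Purkinje cell gene, stood at 83.9, 26.3 and 10.3 against 0.141 to 2.58. In AD replicate 1 the same scale gave 187 for Camk2a and 34.2 for Nrgn, against 1021 to 1673 and 163 to 686 in those 13 libraries. Thus the library richest in Gabra6 was the poorest in both genes.

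Snap25, which neurons of all regions express, lay at 1544 in AD replicate 1 and within the range of the 13 libraries (1026 to 3652). The low end of that range was WT replicate 8 alone, and the next lowest of the 13 was AD replicate 8 at 1743. Thy1, whose mouse promoter drives the transgenes, was compared over its 3′ UTR as a check of the labels, and it went against them in 5 libraries. The library labelled WT replicate 1 stood at 2455 reads per 1000000 nuclear mRNA fragments and the other 7 WT libraries at 207 to 517, whereas AD replicates 2, 3, 5 and 6 stood at 1001 to 2507 and AD replicates 1, 4, 7 and 8 at 297 to 538. The transgene's own human sequence was not matched here, so this check is indirect. Gfap, a filament protein of astrocytes that reactive astrocytes hold in larger amounts, was looked at after its values were seen. On the same scale it stood at 13.6 to 70.3 in WT replicates 2 to 8, at 81.7 to 204.6 in AD replicates 1, 4, 7 and 8, at 97.1 to 277 in the other AD libraries and at 185 in WT replicate 1. By Gfap, then, WT replicate 1 lay among the AD libraries, and the 4 AD libraries low in Thy1 lay above the other 7 WT libraries. Of these 4, AD replicates 1 and 7 are also among the 3 libraries with cerebellar fragments. The part that brain region had in their Thy1 and Gfap values was not tested. The tests of AD against WT per gene in PANDORA-seq and of the shares of reads below were repeated without the 3 libraries with cerebellar fragments and without the 5 in which Thy1 went against the label, both choices made after seeing the data, while the other comparisons were not.

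**Figure D1:**
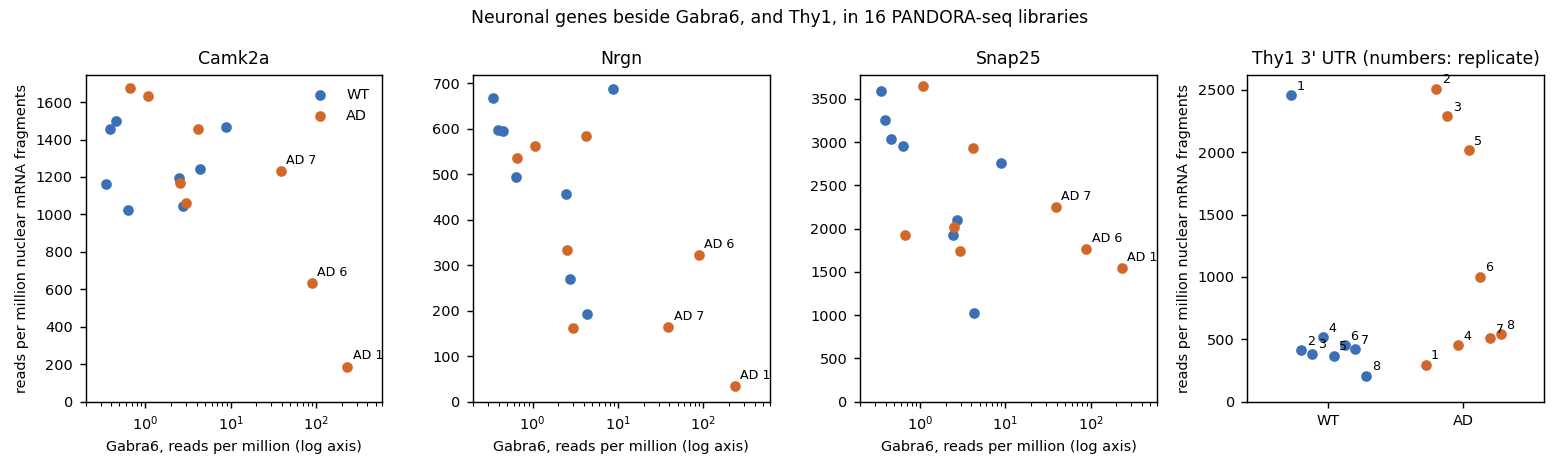
Left and middle panels: reads per 1000000 nuclear mRNA fragments of 20 to 45 nt for Camk2a, Nrgn and Snap25 (vertical) against Gabra6 (horizontal, log axis), 1 point per PANDORA-seq library, blue WT and orange AD. Right panel: the same unit for the Thy1 3′ UTR, numbered by replicate. AD replicate 1, at 233 for Gabra6, is the lowest library for Camk2a (187) and Nrgn (34.2), and WT replicate 1 (2455) lies among the AD libraries of high Thy1.

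The first question was whether fragments of these mRNAs were fewer or more in AD cortex. Levels are reads of a gene per 1000000 reads of 15 to 40 nt of the same library (rpm), and fold changes are log2 of AD over WT from edgeR's quasi-likelihood test with Benjamini-Hochberg adjustment over all genes. For fragments of 20 to 40 nt the mean of each of the 7 genes was lower in AD, by 0.55 to 0.88 on the log2 scale, and no gene passed the test. The median of all 12959 genes tested was -0.42 on this scale.

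Of the vesicle proteins, Snap25 fragments of 20 to 40 nt ranged from 67.5 to 613 rpm in WT, with a median of 298, and from 89.3 to 505 in AD, with a median of 158 (log2 fold change -0.62, SE 0.44, edgeR adjusted p = 0.524). The AD libraries lay within the WT range, and 7 of 8 were below the WT median. Syt1 ranged from 42.9 to 366 rpm in WT (median 164) and from 17.5 to 277 in AD (median 87.6), a log2 fold change of -0.75 (SE 0.45). Again 7 of 8 AD libraries were below the WT median, and 1 was below the lowest WT library.

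Among the calmodulin partners, Camk2a ranged from 86.9 to 210 rpm in WT (median 141) and from 11.5 to 236 in AD (median 97.5), with a log2 fold change of -0.55 (SE 0.43). Here 4 AD libraries were under the whole WT range, with replicate 1 far under it at 11.5 rpm, while replicate 5 was the highest of all 16. Camk2n1 ranged from 49.2 to 204.5 rpm in WT (median 91.4) and from 15.3 to 160 in AD (median 68.8), a log2 fold change of -0.60 (SE 0.43). Nrgn, a postsynaptic reservoir of calmodulin, stood at 12.2 to 107 rpm in WT (median 56.1) and 2.16 to 72.5 in AD (median 24.8), and its log2 fold change of -0.88 (SE 0.46) was the furthest from 0 among the 7. Its 2 lowest AD libraries were below the WT range. Calm2 ranged from 24.2 to 220 rpm in WT (median 83.3) and from 21.7 to 153 in AD (median 60.4), with a log2 fold change of -0.55 (SE 0.44).

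The pump subunit Atp1b1 ranged from 26.7 to 251 rpm in WT (median 119) and from 30.02 to 196 in AD (median 66.6), with a log2 fold change of -0.72 (SE 0.44). The groups overlapped for each of the 7 genes, and WT replicate 8 was the lowest WT library for each. The adjusted p was 0.524 for all of them, and 0 of 7 were called, where 0% of all tested genes were called lower and 0.054% higher. Over all genes 542 had an unadjusted p under 0.05, and DESeq2 called 0 of the 7 as well. The sizes moved with single libraries: the 7 ran from -0.84 to -1.23 without AD replicate 5 and from -0.26 to -0.65 without WT replicate 4, with none called. They ran from -0.22 to -0.49 without the 3 libraries with cerebellar fragments and from -0.18 to -0.43 without the 5 in which Thy1 went against the label, again with none called. Scaled instead by edgeR's TMM factors, which centre the median of all genes at 0.00, the 7 log2 fold changes were -0.09 to -0.45 (adjusted p = 0.664 to 0.907). Without the 3 libraries with cerebellar fragments the same scale gave -0.12 to 0.13, above 0 for Camk2a, Camk2n1 and Calm2, and without the 5 in which Thy1 went against the label -0.17 to 0.14, above 0 for Camk2n1, Snap25, Nrgn and Calm2.

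**Figure D2:**
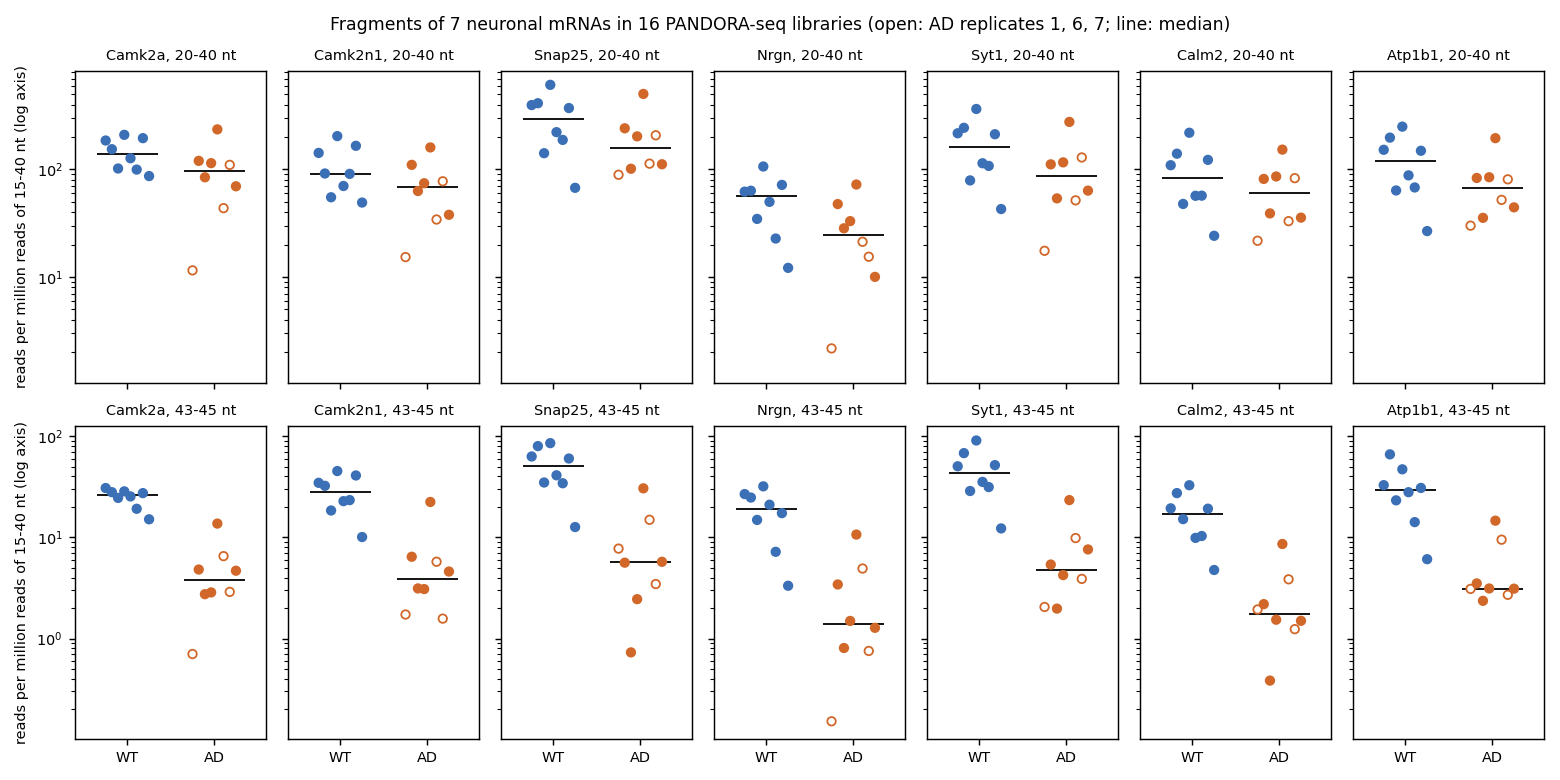
Reads per 1000000 reads of 15 to 40 nt (log axis) of each gene in 8 WT and 8 AD PANDORA-seq libraries, for fragments of 20 to 40 nt (top) and 43 to 45 nt (bottom). Lines are medians and open circles are AD replicates 1, 6 and 7. The groups overlap in every upper panel, while in the lower row each AD median (1.38 to 5.68) is below the lowest WT library, which lies between 3.32 and 15.1.

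With all lengths of 20 to 45 nt, the log2 fold changes were -0.71 for Camk2a, -0.77 for Calm2, -0.84 for Camk2n1 and Snap25, -0.97 for Atp1b1, -0.997 for Syt1 and -1.18 for Nrgn (edgeR adjusted p = 0.161 to 0.185), against a median of -0.65 over all 13365 genes. The test called 0 of the 7, where 0.00748% of genes were called lower and 0.0449% higher. Its unadjusted p was under 0.05 for 4 of the 7, and for 4138 of all 13365 genes. DESeq2 on its own size factors gave -0.07 to -0.51 and called 0 of the 7. Of the 16 libraries left out in turn from the edgeR test, AD replicate 5, the AD library richest in these fragments, was the one whose absence changed the calls of the 7. Without it all 7 were called lower (-1.02 to -1.57, adjusted p = 0.0182 to 0.0298), as were 6577 of 13410 genes. Other settings brought the 7 nearer to 0, with none called: -0.51 to -0.98 without WT replicate 4, -0.39 to -0.78 without the libraries with cerebellar fragments and -0.36 to -0.66 without those in which Thy1 went against the label. With TMM factors they ran from -0.07 to -0.52, and from -0.16 to 0.17 and from -0.17 to 0.15 without the same 2 sets, again with none called.

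The longest fragments differed between the genotypes, at lengths chosen because all reads were known to differ there in these libraries. At 43 to 45 nt all 7 genes were lower in AD, by 2.23 to 2.71 on the log2 scale per 1000000 reads of 15 to 40 nt, and all 7 passed the test, as did 96.6% of all tested genes, while 0.0455% were called higher. The median of all genes was -2.09. A share of 7 in 7 is therefore close to the background of mRNA fragments of these lengths.

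Camk2a fragments of 43 to 45 nt ranged from 15.1 to 30.7 rpm in WT (median 26.4) and from 0.702 to 13.7 in AD (median 3.79), a log2 fold change of -2.35 (SE 0.51, edgeR adjusted p = 2.34e-05). No AD library reached the lowest WT library, a separation that 12.1% of the 8788 tested genes showed and that none of the other 6 genes did. Snap25 fell from a median of 50.6 rpm (12.7 to 85.5) to 5.68 (0.729 to 30.5), by 2.53 on the log2 scale (SE 0.54). Syt1 fell from 42.9 (12.3 to 90.8) to 4.81 (1.98 to 23.4), by 2.66 (SE 0.54). The AD libraries under the whole WT range numbered 6 of 8 for Snap25 and 7 of 8 for Syt1.

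Calm2 had the fold change furthest from 0, with a median of 17.2 rpm (4.76 to 32.8) in WT and 1.73 (0.384 to 8.60) in AD and a log2 fold change of -2.71 (SE 0.52, edgeR adjusted p = 4.29e-06). Nrgn fell from a median of 19.2 rpm (3.32 to 31.96) to 1.38 (0.152 to 10.7), by 2.65 (SE 0.53). Camk2n1, the inhibitor of the kinase, fell from 27.9 rpm (10.1 to 45.3) to 3.86 (1.57 to 22.4), by 2.23 (SE 0.52). Atp1b1 fell from 29.4 rpm (6.08 to 66.2) to 3.12 (2.36 to 14.6), by 2.56 (SE 0.53). In each of the 7 genes the highest AD library was replicate 5.

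All 7 remained called without the libraries with cerebellar fragments (-1.85 to -2.61), where 96.7% of 10065 genes were called lower, and without those in which Thy1 went against the label (-1.55 to -2.18, edgeR adjusted p = 0.0155 to 0.0466), where 70.7% of 10258 were. On the TMM scale, which sets each gene against the other mRNA fragments of 43 to 45 nt, the fold changes were -0.13 to -0.66 and Calm2 alone was called (-0.66, adjusted p = 0.0398), where 4.87% of genes were called lower and 6.28% higher. None of the 7 was called on that scale once either set of libraries was left out. The 7 then ran from -0.66 to 0.26 without the libraries with cerebellar fragments, above 0 for Camk2a and Camk2n1, and from -0.52 to 0.27 without those in which Thy1 went against the label, above 0 for Camk2n1. Scaled by all reads of 43 to 45 nt, of any RNA, the 7 had log2 fold changes of -0.32 to -0.93 and none was called (adjusted p = 0.268 to 0.749), where 0.0658% of genes were called lower and 0.252% higher.

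**Figure D3:**
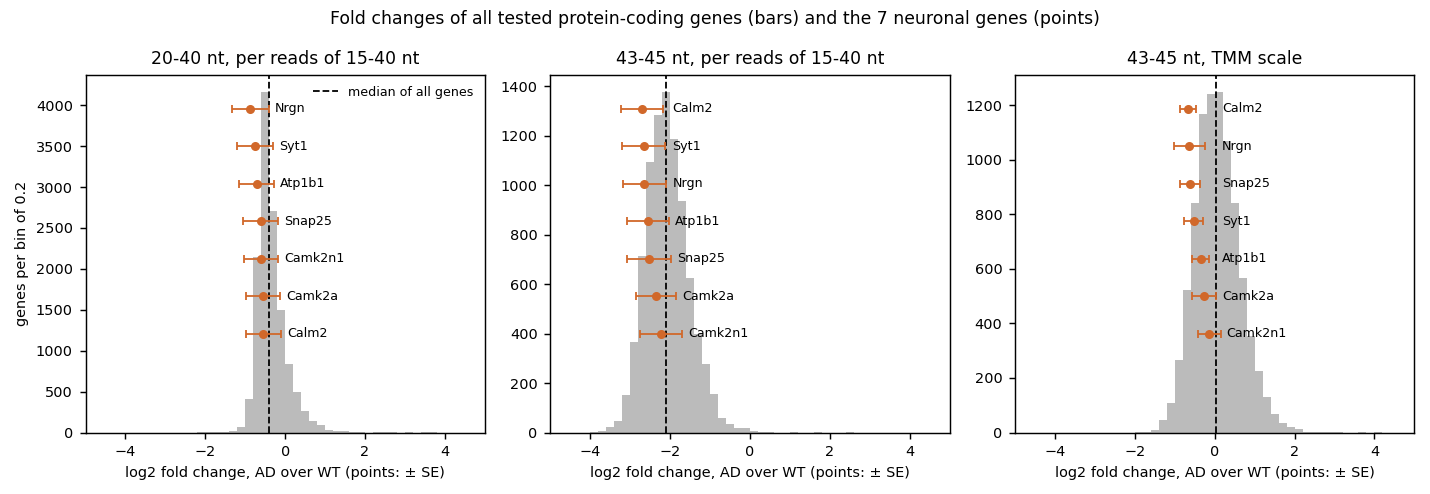
Number of protein-coding genes (bars, bins of 0.2) by log2 fold change of AD over WT, with the 7 genes as orange points ± SE and the median of all genes as a dashed line. Left: 20 to 40 nt per 1000000 reads of 15 to 40 nt, median -0.42. Middle: 43 to 45 nt on the same scale, median -2.09. Right: 43 to 45 nt on the TMM scale, median 0.03, where the 7 genes lie between -0.66 and -0.13.

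The same shift can be read from the length of each gene's fragments. Since the lengths of 43 to 45 nt were chosen for a known difference of all reads, low p-values were likely beforehand. In WT, fragments of 43 to 45 nt made up 23.3% of the 20 to 45 nt reads of Nrgn, 19.1% of Camk2n1, 18.9% of Syt1, 17.7% of Atp1b1, 13.7% of Camk2a, 13.6% of Calm2 and 12.9% of Snap25. In AD these shares were 7.74%, 7.15%, 6.46%, 6.12%, 4.78%, 3.75% and 3.86%. Every AD library lay below every WT library for 6 of the genes (two-sided exact permutation test, p = 0.0001554, the smallest that 8 against 8 allows), and 7 of 8 did for Camk2a (p = 0.000466). Without the libraries with cerebellar fragments the exact permutation test gave p = 0.00155 for all 7, and without those in which Thy1 went against the label p = 0.00606 for 6 and 0.0182 for Camk2a, where 0.00155 and 0.00606 are the smallest these numbers of libraries allow. Fragments of other nuclear mRNAs went from 18.6% ± 3.85 to 5.70% ± 3.11 (SD, n = 8) and all reads of any RNA from 15.5% ± 3.19 to 4.95% ± 2.90. The genotypes did not overlap in these shares either. Other nuclear mRNAs stood at 15.5% or more in WT and 11.8% or less in AD, and all reads at 11.2% or more and 10.7% or less. The separation was therefore not particular to the 7 genes, and how many single genes showed it was not computed. The order of the genes by this share was led in both genotypes by Nrgn, Camk2n1 and Syt1.

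By single lengths, the 7 genes together reached 39 nt at 82.2 ± 47.4 rpm in WT and 48.5 ± 30.8 in AD. At 42 nt they stood at 95.7 ± 46.9 and 39.1 ± 31.0, and at 45 nt at 69.8 ± 30.4 and 7.13 ± 6.66. WT fragments thus continued to the longest reads in the libraries, while AD means declined from 41 nt onward.

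**Figure D4:**
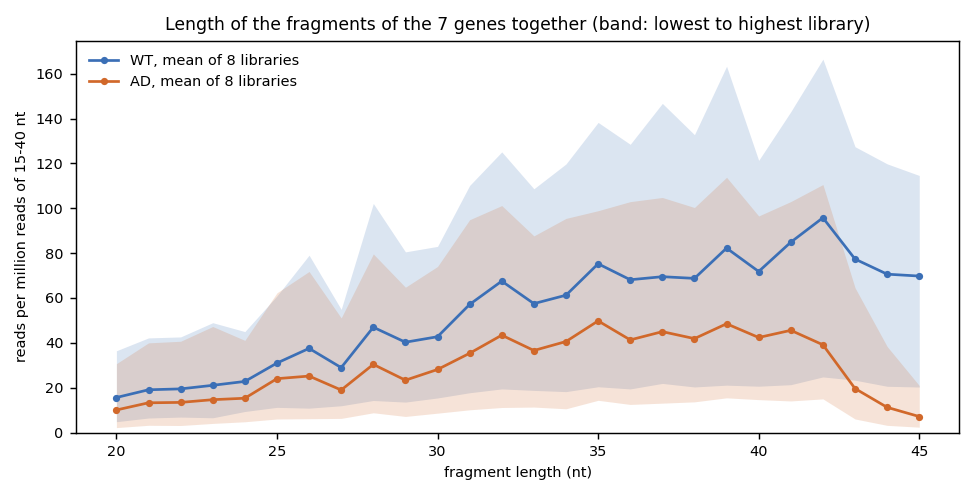
Reads per 1000000 reads of 15 to 40 nt of the 7 genes together at each fragment length from 20 to 45 nt. Lines are means of 8 WT or 8 AD PANDORA-seq libraries and bands run from the lowest to the highest library. The bands overlap at every length, and at 45 nt, where the means are 69.8 and 7.13, the lowest WT library (20.3) lies just under the highest AD library (20.96).

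Levels per kb of transcript allow the genes to be ranked. For fragments of 20 to 40 nt in WT, Snap25 led with 143 ± 84.4 rpm per kb (SD, n = 8), followed by Calm2 with 80.8 ± 53.1 and Atp1b1 with 48.3 ± 29.5. Each of these steps, and that from Atp1b1 to Syt1 (36.5 ± 22.4), held in 8 of 8 libraries (exact sign-flip permutation test, p = 0.00781, the smallest possible). Syt1 and Nrgn (36.5 ± 20.7) were not distinguishable (exact test, p = 1), nor were Nrgn and Camk2a (29.2 ± 9.67, p = 0.133). Camk2a exceeded Camk2n1 (24.5 ± 12.6) in 6 of 8 libraries (exact test, p = 0.0469). These 6 steps were compared without adjustment, between neighbours sorted by their means in the same libraries, so each pair and its order came from the data tested. The levels divide by the annotated transcript length. Camk2n1, with 4444 nt, had few reads past 1650 nt from its start codon, and its place depends on that length.

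On GRCm38 the genes with the shortest coding parts were Camk2n1 (chr4:138454314-138460123, plus strand, coding part 237 nt and 3′ UTR 3335 nt) and Nrgn (chr9:37544492-37552904, minus strand, 237 nt and 863 nt). Camk2a (chr18:60925618-60988152, plus strand) has 1437 nt and 3372 nt, and Syt1 (chr10:108497650-109010982, minus strand) 1266 nt and 2888 nt. Snap25 (chr2:136713453-136782428, plus strand) has 621 nt and 1285 nt, Calm2 (chr17:87433412-87446935, minus strand) 450 nt and 615 nt, and Atp1b1 (chr1:164437109-164458355, minus strand) 915 nt and 1167 nt.

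Where along the mRNA the fragments lay differed between the genes. Most reads of 20 to 45 nt came from the 3′ UTR, with 72.1% for Camk2a, 71.1% for Snap25, 70.6% for Camk2n1, 69.7% for Calm2, 67.9% for Nrgn and 63.99% for Syt1 in WT, while Atp1b1 had 51.8% in its coding part and 45.2% in its 3′ UTR. Per kb, Camk2n1 coding sequence gave 144 rpm and its much longer 3′ UTR gave 31.98. The latter divides by the annotated 3335 nt, although few reads lay past 1650 nt from the start codon. The size of this contrast therefore depends on the annotated length. Snap25 coding sequence gave 171 rpm per kb and its 3′ UTR 227, whereas Calm2 gave 78.4 and 155. These values were close to each other in Camk2a (36.2 and 39.8) and Syt1 (55.4 and 56.5). In Nrgn (73.3 and 62.0) and Atp1b1 (103 and 69.1) the coding value was the higher one. The 5′ UTR held from 0.828% (Camk2a) to 10.6% (Nrgn) of reads.

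Along the transcripts, reads clustered in short stretches. In bins of 50 nt counted from the start codon, the fullest bin held 28.5% of WT reads in Nrgn (from 1050 nt, at the end of its 3′ UTR) and 21.99% in Calm2 (from 650 nt, past its coding end at 450 nt). Snap25 had 14.4% in the bin from 250 nt, within the coding sequence, and Syt1 spread most evenly, with 7.75% in its fullest bin from 200 nt. In 5 of the genes the same bin was fullest in AD. The exceptions were Camk2n1 (1250 nt in WT, 250 nt in AD) and Nrgn (1050 nt in WT, 450 nt in AD).

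**Figure D5:**
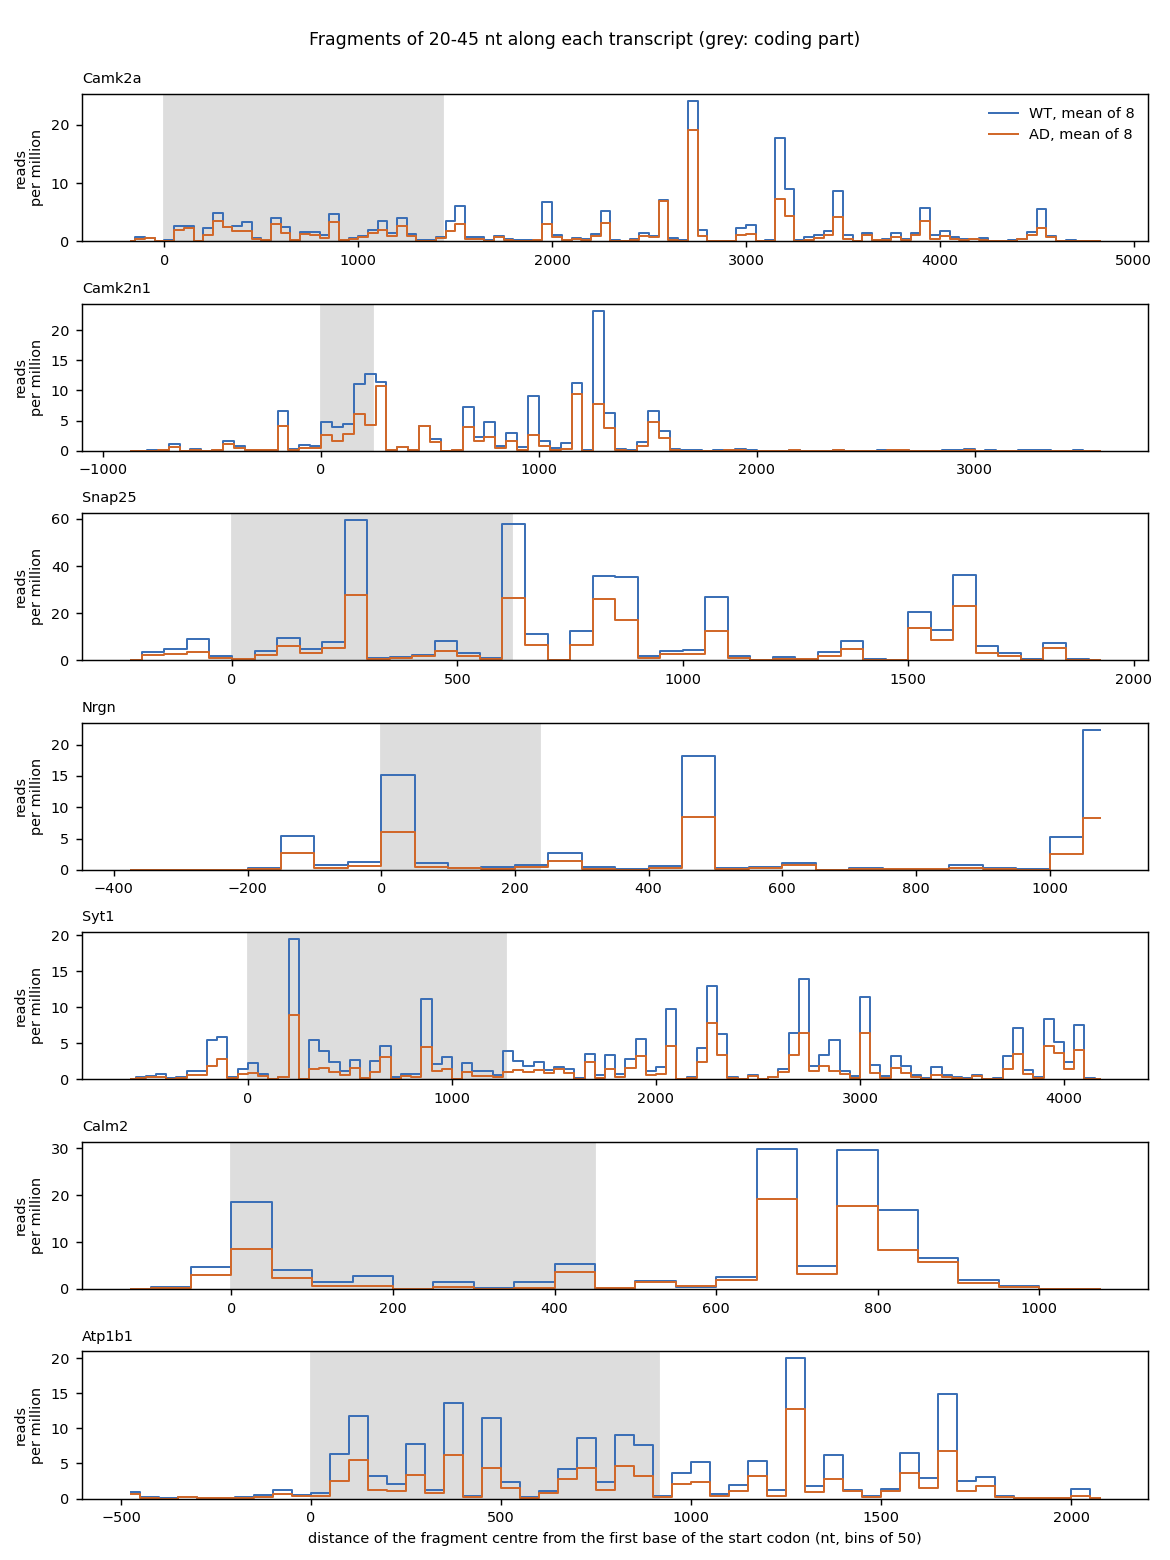
Mean reads per 1000000 reads of 15 to 40 nt of fragments of 20 to 45 nt in bins of 50 nt along each transcript, counted from the first base of the start codon, in WT (blue) and AD (orange) PANDORA-seq libraries, 8 each. The coding part is grey. Peaks stand at matching places in both genotypes, and the fullest bin holds between 7.75% (Syt1) and 28.5% (Nrgn) of the WT reads.

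Tested by position, the 21 features (7 genes by 5′ UTR, coding part and 3′ UTR) had log2 fold changes of -0.57 to -1.27 at 20 to 45 nt, with a median of -0.64 over all 26641 features tested. The test called 0 of the 21 (edgeR adjusted p = 0.176 to 0.315), where 0.00751% of features were called lower and 0% higher, and 9 of the 21 had an unadjusted p under 0.05, as did 7458 of all features. With TMM factors these counts were 1 and 2749. For some genes the coding share differed between shorter and longer fragments. In WT the coding part held 11.2% ± 3.804 of Calm2 reads of 20 to 40 nt (6.21% to 17.2%) and 43.1% ± 8.86 of those of 43 to 45 nt (30.4% to 56.7%), ranges that did not overlap. The part that the Calm2 reads left out for matching another gene had in these shares was not tested. For Camk2n1 the shares were 16.8% ± 3.28 and 30.7% ± 8.00, whereas for Camk2a they were alike at 26.9% ± 3.601 and 27.5% ± 3.87.

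Within the fragments of 43 to 45 nt, the coding share of Camk2a was 27.5% ± 3.87 in WT and 41.1% ± 9.54 in AD (exact permutation test, p = 0.00218). For Atp1b1 it moved the other way, from 55.7% ± 5.32 to 37.6% ± 10.2 (exact permutation test, p = 0.00124). The other 5 genes gave p from 0.147 to 0.759 in the same exact test. These 7 tests were chosen after seeing the data and are not adjusted, and the same test was not run on all genes. The AD shares rest on few reads in some libraries. Camk2a had 37 to 998 reads of these lengths per AD library and 1091 to 2087 per WT library. Atp1b1 had 123 to 1066 and 454 to 4684. Without the libraries with cerebellar fragments the exact test gave p = 0.0109 for Camk2a and 0.00311 for Atp1b1, and without those in which Thy1 went against the label 0.00606 and 0.0485. At 20 to 40 nt the 7 exact tests gave p from 0.154 to 0.777. A p under 0.05 was also met for Camk2n1 at 43 to 45 nt without AD replicate 1 (0.0413) and at 20 to 40 nt without AD replicate 5 (0.0308), and for Camk2a at 20 to 40 nt without the libraries in which Thy1 went against the label (0.0485, all by the exact permutation test).

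Snap25 has a pair of mutually exclusive coding exons, and its transcripts 201 and 202 have coding parts of 621 nt that differ at 31 positions between 171 and 273. The bin with most Snap25 reads overlaps this region, as does the printed Snap25 fragment, which matches only transcript 201. Of the coding reads that fit only 1 of these transcripts, 4.54% ± 1.71 (SD, n = 8) fit only 202 in WT, from 2.46% to 7.80%, and 2.67% ± 1.87 in AD, from 0.853% to 5.54% (1625 and 553 reads in all). The groups overlapped (exact permutation test, p = 0.0555). The exact test gave p = 0.0715 without the libraries with cerebellar fragments, 0.0182 without those in which Thy1 went against the label, and 0.0190 to 0.110 with each library left out, under 0.05 without WT replicate 3 or 4 or AD replicate 7 or 8.

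In PANDORA-seq the fragments began and ended at particular bases. At 20 to 40 nt, the transcript base just before the fragment was U in 61.1% (Camk2a) to 74.1% (Calm2) of reads averaged over 16 libraries, where 19.4% to 28.3% of the steps along these transcripts begin with U. The base just after the fragment was U in 57.0% (Camk2n1) to 77.7% (Calm2). A step from U to A preceded 23.9% (Camk2a) to 42.5% (Nrgn) of fragments, against 2.20% to 5.48% of transcript steps. The printed fragments of Camk2n1, Syt1, Calm2 and Atp1b1 begin at such a step.

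A step from U to G preceded from 14.0% (Camk2n1) to 41.2% (Calm2) of fragments, against 6.06% to 8.80% of transcript steps. In traditional-seq, U came before 15.5% (Calm2) to 33.3% (Camk2a) of fragments and after 15.5% to 36.7%. Other nuclear mRNAs had the same feature, with U before 61.1% ± 10.2 of fragments in WT and 58.7% ± 12.9 in AD by PANDORA-seq and 25.2% ± 0.737 and 25.7% ± 1.099 by traditional-seq. WT and AD libraries overlapped in each of these shares.

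Traditional-seq gave a second view of the 7 genes. Snap25 fragments of 20 to 40 nt ranged from 18.3 to 57.6 rpm in WT (median 30.5, n = 7) and from 10.6 to 56.1 in AD (median 34.8, n = 7). Camk2a ranged from 12.2 to 80.5 rpm (median 33.4) and from 10.7 to 52.5 (median 40.7). Nrgn had the fewest reads, at 1.24 to 8.28 rpm (median 2.18) and 0.641 to 5.75 (median 2.29), from 6 to 98 reads per library.

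The groups overlapped throughout. Over 20 to 42 nt the log2 fold changes were -0.25 (Atp1b1) to 0.09 (Calm2), with SEs of 0.46 to 0.48 and adjusted p = 0.999987, and 0 of 7 and 0% of 3212 genes were called, 6 of which had an unadjusted p under 0.05. A 95% interval of the Snap25 difference ran from -0.93 to 0.94, so changes of the size seen in PANDORA-seq at 20 to 40 nt could not be told from 0. The SE of Snap25 was of similar size in PANDORA-seq at 20 to 40 nt (0.44). Its reads of these lengths numbered 4706 to 39334 per library there and 104 to 811 in traditional-seq. The difference between the protocols in the genotype effect was itself -0.47 to -0.74 and called for 0 of 7 genes and 0% of 12693 (edgeR interaction term, adjusted p = 0.931). Thy1 was higher in AD in traditional-seq on the TMM scale (log2 fold change 1.45, adjusted p = 0.0273) and not on the scale of reads of 15 to 40 nt (1.21, adjusted p = 0.999987).

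PANDORA-seq held more fragments of all 7 genes than traditional-seq, as it did for 98.7% of 11643 genes, with 0.163% lower. A mouse may have given libraries to both protocols. This test and the interaction test above treated all libraries as independent. The log2 differences were 1.66 for Camk2n1, 1.77 for Camk2a, 2.26 for Syt1, 2.90 for Snap25, 3.02 for Atp1b1, 3.32 for Calm2 and 3.79 for Nrgn, around a median of 2.64 for all genes. Set against the other mRNAs on the TMM scale, Nrgn (1.35, adjusted p = 5.52e-05), Calm2 (0.77, 5.76e-05), Atp1b1 (0.45, 0.00381) and Snap25 (0.36, 0.0372) were higher in PANDORA-seq, Camk2a (-0.59, 0.00905) and Camk2n1 (-0.69, 0.00263) were lower, and Syt1 (-0.26, 0.189) did not pass the test. On that scale 23.8% of genes were called higher and 12.1% lower.

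The genes were also ranked per kb in traditional-seq, again with neighbours taken from the means of the libraries tested. In WT libraries Snap25 stood first with 15.4 rpm per kb and Nrgn last with 2.04, each apart from its neighbour in 7 of 7 libraries (exact sign-flip permutation test, p = 0.0156, the smallest possible). Camk2a, at 7.20, stood next to Snap25, and the steps from it through Calm2 (6.47), Syt1 (6.36), Camk2n1 (6.21) and Atp1b1 (5.05) did not pass the same exact permutation test (p = 0.391 to 0.859). In AD, too, Nrgn was last in traditional-seq, below its neighbour Atp1b1 in 7 of 7 libraries (exact test, p = 0.0156). In PANDORA-seq Nrgn and Camk2a were not distinguishable in either genotype (exact test, p = 0.133 in WT and 0.984 in AD), and their means stood in opposite order in WT and AD.

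Wider lists of genes of the same pathways, which hold the 7 as well, were read in the same fits. At 20 to 40 nt in PANDORA-seq, 0 of 39 genes of presynaptic vesicle release, 0 of 43 of postsynaptic and calmodulin signalling and 0 of 9 Na,K-ATPase subunits were called, with median log2 fold changes of -0.64, -0.59 and -0.52 against -0.42 for all genes. Single genes ran from -0.93 to 0.07, from -0.94 to -0.18 and from -0.81 to 0.43 in the 3 lists. Among the most abundant were Dnm1 (-0.67), a GTPase of vesicle retrieval, and Grin2b (-0.94), an NMDA receptor subunit. On the TMM scale the 3 medians were -0.20, -0.21 and -0.14, and without the libraries with cerebellar fragments -0.00, -0.06 and 0.05.

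At 43 to 45 nt, 38 of 39, 42 of 42 and 8 of 8 tested members of these lists were called lower on the scale of reads of 15 to 40 nt, where 96.6% of all genes were. On the TMM scale, where 4.87% of all genes were called lower and 6.28% higher, the presynaptic list had 1 lower and 1 higher, the postsynaptic list 4 lower and 5 higher, and the pump subunits 0 lower and 2 higher. None of these calls remained without the libraries in which Thy1 went against the label. There 0 of 10258 genes were called lower and 1 higher, Thy1, which is in none of these lists.

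Markers of cell types were read on the same scales. At 20 to 40 nt, excitatory neuron markers (10 genes) had a median of -0.69 and inhibitory neuron markers (8 genes) of -0.85, and those of astrocytes (14 genes), microglia (17 of 18 tested), oligodendrocytes (12 genes) and endothelial and mural cells (10 genes) had medians of 0.18, 0.36, -0.01 and 0.59. None of these markers was called at 20 to 40 nt. At 43 to 45 nt on the TMM scale, with 6.28% of all genes called higher, the calls were 6 of 14 astrocyte, 3 of 8 microglia and 3 of 11 oligodendrocyte markers higher and 0 lower, and 0 of 9 endothelial and mural markers. Of the neuronal markers there, 1 of 9 excitatory was lower and 1 higher, 1 of 8 inhibitory was lower and 1 of 22 general neuronal was lower. Without the libraries with cerebellar fragments the calls higher were 1 of 14 astrocyte, 1 of 10 microglia and 0 of 11 oligodendrocyte markers. In that fit 484 of all 10065 genes were called higher and 368 lower. Without the libraries in which Thy1 went against the label, 1 of all 10258 genes tested was called higher on that scale, Thy1 itself, by which those libraries had been chosen. Among markers of other brain regions at 20 to 40 nt, 1 of 10 tested was called higher, Gabra6, at 3.73 (adjusted p = 0.00663), and it stood at -0.35 (adjusted p = 0.760) without AD replicates 1, 6 and 7. The other genes called higher were Car8, Cbln1, Cbln3, En2, Fat2 and Il16, at 2.45 to 3.78.

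The summed level of these marker lists in PANDORA-seq, in reads per 1000000 nuclear mRNA fragments, overlapped between the genotypes. The 7 genes together ran from 4684 to 11759 in WT and from 3228 to 11726 in AD. Astrocyte markers ran from 3520 to 6009 and from 4367 to 8123, microglia markers from 637 to 1315 and from 777 to 1591, and oligodendrocyte markers from 837 to 2512 and from 842 to 4082. No listed marker of these cell types was at 0 in either group by PANDORA-seq, and the part that a different mix of cells had in the values of the 7 genes was not tested.

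Across the 16 PANDORA-seq libraries levels of the 7 genes were positively related in all 21 pairs, to unequal degrees. On the TMM log2 scale of 20 to 40 nt, Pearson's r between pairs of them ran from 0.41 (Camk2n1 and Atp1b1) to 0.93 (Snap25 and Atp1b1), with a median of 0.78. Against Gabra6 the 7 had r from -0.63 (Atp1b1) to -0.84 (Syt1). Camk2a and Camk2n1 went together (0.89), as did Syt1 and Calm2 (0.89), whereas Camk2a and Snap25 had 0.44. These points share the libraries that stand apart and are given as a description. Of the 3 with cerebellar fragments, AD replicates 1 and 6 were low in Camk2a (187 and 631 reads per 1000000 nuclear mRNA fragments) and replicate 7 was not (1233). Snap25 lay within the range of the 13 other libraries in all 3, although in AD replicate 1 it was above WT replicate 8 alone. Of 9879 genes, the one most like each was Lzts1 for Camk2a (r = 0.96), Lhx2 for Camk2n1 (0.92), Cadps for Snap25 (0.95) and for Atp1b1 (0.95), Syn1 for Nrgn (0.96), Cntnap2 for Syt1 (0.98) and Atp6v1c1 for Calm2 (0.96). The 100 genes most like each held 1 other of the 7 for Camk2a, Camk2n1, Snap25 and Atp1b1, and 0 for Nrgn, Syt1 and Calm2. Values of r such as those within the 7 were thus also reached by many other genes.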

How the data were processed

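The authors deposited, for each of 30 libraries, a list of the distinct sequences left after trimming of adapters, with raw read counts that carry no normalization or annotation. The submitters' processing notes name mm39, which was not used, and the study's methods name the SPORTS pipeline, run with a changed mismatch tolerance and otherwise on defaults, keeping reads of 15 to 45 nt. Whole sequences of 20 to 45 nt were matched without mismatch to 141767 GENCODE vM21 transcripts (GRCm38), with no genome search. Reads were placed by their midpoint. PANDORA-seq libraries held 44422513 to 94872662 reads of 15 to 40 nt, the denominator of rpm.

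Counts per protein-coding gene entered edgeR 4.0.16 under R 4.3.3 (quasi-likelihood test, filterByExpr with a minimum count of 10 and a minimum total of 15, adjusted p under 0.05, no fold limit). DESeq2 1.42.0, TMM and DESeq2 size factors, no filter, other denominators and lengths, the replicate number as a block and each library left out in turn were alternatives. The TMM factors and likelihood ratio test of the study were among these, because reads of 43 to 45 nt were known to differ between the genotypes. Single values were compared by two-sided exact permutation tests with SciPy 1.17.1. On simulated counts, 193 of 193 tested genes changed by 3 on the log2 scale were recovered, with 3 false calls among 12823 genes. The 7 genes had -0.55 to -0.88 at 20 to 40 nt, and recovery of changes of that size was not tested.

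The 7 genes, the gene lists and the tests were chosen with earlier results of these data known. The named genes were all 7 genes and, of each list, up to 3 examples: those called with the largest fold change, or the 3 with the highest mean count. Some of these examples are not reported here. Likeness was the Pearson correlation over 16 libraries among genes with a mean count of at least 50. Reads carry no molecular identifiers. Camk2a sequences are not printed here.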

Additional observations from a re-analysis of the deposited data

Results flagged for a closer look

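In 8 cases AD replicate 5 lay above the other AD libraries of PANDORA-seq by more than Dixon's 95% limit. At 20 to 40 nt it held 505 reads per 1000000 for Snap25 (next library 242), 277 for Syt1 (next 129) and 196 for Atp1b1 (next 84.7). At 43 to 45 nt it held 13.7 for Camk2a (next 6.52), 22.4 for Camk2n1 (next 6.43), 10.7 for Nrgn (next 4.92), 23.4 for Syt1 (next 9.84) and 8.60 for Calm2 (next 3.85). In traditional-seq, WT replicate 5 held 8.28 reads per 1000000 for Nrgn (next 3.68). Of 42 groups tested, chance alone flags about 1 in 20, and the 8 cases share 1 library.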

How the results depend on the processing

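Counts of genes called lower and higher in AD moved with the scaling. At 20 to 45 nt they were 1 and 6, and became 0 and 0 with TMM factors or with size factors of DESeq2, 0 and 1 for the likelihood ratio test on TMM factors, 4 lower with DESeq2, 5 and 20 with no low count filter, and 0 lower with all reads as denominator. Leaving out the libraries with cerebellar fragments gave 12 and 2, and 0 and 0 on TMM factors. Leaving out those with Thy1 against the label gave 32 lower, and 0 and 1 on TMM factors. At 20 to 40 nt (0 and 7) the higher count was 0 with TMM factors, DESeq2 size factors, the likelihood ratio test or DESeq2, and 21 with no filter, which called 2 lower. It was 1 without the cerebellar libraries (0 on TMM factors) and 1 on TMM factors without the Thy1 libraries, which on the main scale gave 17 lower. At 43 to 45 nt (8492 and 4) the counts were 428 and 552 with TMM factors, 464 and 548 with DESeq2 size factors, 700 and 845 with the likelihood ratio test, 752 and 861 with DESeq2, 55 higher with no filter, and 6 and 23 per reads of the same length. Without the cerebellar libraries they were 9736 and 0, and 368 and 484 on TMM factors, and without the Thy1 libraries 7255 and 2, and 0 and 1 on TMM factors. By position the 2 lower calls became 1 with TMM factors and 0 at 20 to 40 nt. Traditional-seq had 1 higher call (Thy1) with TMM factors. PANDORA-seq against traditional-seq gave 1405 lower and 2773 higher with TMM factors. The cause of these shifts was not tested.

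The sign turned for these log2 fold changes. With TMM factors and without the cerebellar libraries, 20 to 45 nt gave 0.17 for Camk2a, 0.12 for Camk2n1 and 0.15 for Calm2, 20 to 40 nt gave 0.077, 0.11 and 0.13 for these, and 43 to 45 nt gave 0.022 for Camk2a and 0.26 for Camk2n1. With TMM factors and without the Thy1 libraries, 20 to 45 nt gave 0.070 for Camk2a, 0.15 for Camk2n1, 0.023 for Snap25, 0.054 for Nrgn and 0.10 for Calm2, 20 to 40 nt gave 0.14 for Camk2n1, 0.0090 for Snap25, 0.10 for Nrgn and 0.035 for Calm2, and 43 to 45 nt gave 0.27 for Camk2n1. With TMM factors by position, the 5′ UTR gave 0.014 for Camk2a, 0.083 for Camk2n1, 0.038 for Calm2 and 0.066 for Atp1b1, and the 3′ UTR 0.046 for Calm2. In traditional-seq Snap25 was -0.076 with TMM factors. Between protocols with TMM factors Camk2a was -0.59, Camk2n1 -0.69 and Syt1 -0.26.

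With each library left out in turn, lower calls at 20 to 45 nt ran from 0 to 6577 and higher calls from 4 to 69, at 20 to 40 nt from 0 to 4 and from 3 to 12, at 43 to 45 nt from 8291 to 8946 and from 1 to 4, and in traditional-seq both from 0 to 0. The 7 genes stayed below 0 at every length in PANDORA-seq. In traditional-seq they ran from -0.20 to 0.28 for Camk2a, -0.13 to 0.40 for Camk2n1, -0.18 to 0.20 for Snap25, -0.45 to 0.34 for Nrgn, -0.38 to 0.0033 for Syt1, -0.11 to 0.29 for Calm2 and -0.38 to -0.06 for Atp1b1, each highest without WT replicate 5.

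Deviations of libraries with the same replicate number had correlations of -0.27 to 0.45 in PANDORA-seq and -0.09 to 0.10 in traditional-seq. Libraries of different numbers were not correlated for reference, so whether a number marks anything shared was not tested. With the replicate block 616 genes were called lower at 20 to 45 nt, Nrgn among them (-1.33, edgeR adjusted p = 0.0391), 8 lower and 2 higher at 20 to 40 nt, and 0 higher at 43 to 45 nt, and in traditional-seq Snap25 was -0.13 and Calm2 -0.041. Leaving out reads that also match the genome outside the gene was not run. Settings that left out libraries for Gabra6 or Thy1, or used TMM factors with them, were chosen after seeing the data. Of the 7 genes, Nrgn had the fewest reads in traditional-seq, at 6 to 98 per library.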
